A study of Homo sapiens with 12 samples.

Results

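The RNAs described here are 6 rows of the count table, RN7SK, 7SK, RN7SL1, RN7SL2, RMRP and RPPH1, taken by their symbols out of 56609 symbols, and all 6 symbols were found. They stand for 4 small structured RNAs made by RNA polymerase III (Pol III). The study used A375, an established human melanoma cell line, and asked through which molecular changes loss of MAPKAPK2, the gene of the kinase MK2, raises resistance to BET bromodomain inhibitors. Its 4 groups of 3 libraries were wild-type cells with DMSO, wild-type cells with JQ1, MAPKAPK2-knockout cells made by CRISPR/Cas9 with DMSO, and knockout cells with JQ1. JQ1, a compound that displaces BET proteins from acetylated chromatin, was given at 500 nM for 48 h, and DMSO was its solvent control for the same time. The sample titles call the DMSO cultures untreated. The labels do not say whether the knockout was a single clone or a pool. Nothing in them says that replicates came from separate cultures, so p-values measure the spread between these libraries, which may be technical.

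Pol III transcribes short, structured noncoding RNAs. RN7SK is the scaffold of the 7SK particle, in which HEXIM1 holds the kinase P-TEFb (CDK9 with a cyclin T) inactive, while MEPCE caps the RNA's 5′ end and LARP7 binds its 3′ end. Release of P-TEFb from this particle lets RNA polymerase II leave promoter-proximal pausing. RN7SL1 and RN7SL2 are near-identical copies of 7SL, the RNA core of the signal recognition particle that brings ribosomes making secretory proteins to the endoplasmic reticulum. RPPH1 is the catalytic RNA of RNase P, which trims the 5′ ends of precursor tRNAs. RMRP is the RNA of the related RNase MRP, which cuts precursor ribosomal RNA. All of them lie under a type of Pol III promoter that stands mainly or partly upstream of the gene.

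On GRCh38, the assembly named in the submitters' processing notes, the GENCODE release 29 annotation places RN7SK (328 bases, ENSG00000283293.1) at chr6:52995621-52995948 on the plus strand. RN7SL1 (299 bases, ENSG00000276168.1) lies at chr14:49586580-49586878 on the plus strand, inside the span of RPS29, which is on the other strand. RN7SL2 (300 bases, ENSG00000274012.1) lies at chr14:49862550-49862849 on the minus strand, inside the long noncoding gene AL627171.2. RPPH1 (333 bases, ENSG00000277209.1) lies at chr14:20343075-20343407 on the minus strand, inside the gene AL355075.4 on the same strand. RMRP (268 bases, ENSG00000269900.3) lies at chr9:35657751-35658018 on the minus strand. Each of them is a single-exon noncoding gene with no coding exon or UTR. No GENCODE 29 transcript carries 7SK alone as its symbol; RefSeq gives 7SK as a synonym of RN7SK, and which transcripts the deposited 7SK row sums is not given in the sources used here.

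The first 120 bases of RN7SK are shown because they hold the 5′ hairpin that HEXIM1 binds. Capitals mark every GATC, the DNA letters of the repeated GAUC motif known for that binding. The marks were set by letters alone and do not say which copies take part in it. A search of the whole RN7SK transcript found 3 such motifs, all within these bases.
RN7SK: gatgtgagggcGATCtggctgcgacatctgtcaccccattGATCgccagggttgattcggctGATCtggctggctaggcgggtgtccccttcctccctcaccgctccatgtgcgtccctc

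The likeness of the 7SL copies decides how far their rows can be read apart. The RN7SL2 transcript differed from that of RN7SL1 at 4 of 299 positions, an identity of 98.7%. RN7SL3, another copy that is no member, differed at 7 positions. The submitters' processing notes name kallisto, which assigns reads by shared short words; of the 269 words of 31 bases in RN7SL1, 196 also occur in RN7SL2. Only 14 of the 270 such words of RN7SL2 occur under no other GENCODE 29 symbol. RN7SL1 has 0 words of its own, because the entry AL139099.4 repeats its sequence whole; that entry was at 0 in every library. The split between RN7SL1 and RN7SL2 is therefore uncertain, and their sum is given beside them. All 303 words of RPPH1 lie in AL355075.4 too, whereas all 238 words of RMRP occur under no other symbol. RN7SK also has 0 words of its own: all 298 occur in RF00100, an entry annotated at the same place, and some in RN7SKP pseudogenes, 105 other symbols in all.

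MAPKAPK2 itself ran from 87.9 to 120 CPM in the 6 wild-type libraries and from 11.1 to 15.7 CPM in the 6 knockout libraries. CPM here scales each library to 1000000 counts, with a TMM factor that evens out library composition. Library totals ran from 25316565 to 34594025 counts. The melanocyte-lineage factor SOX10 ran from 389 to 687 CPM and MITF from 25.6 to 44.1 CPM, while the pigment genes PMEL and MLANA stayed under 1.5 CPM. Of the markers of other cell types, 4 keratinocyte genes summed to 3.998 to 7.12 CPM over all libraries and 3 endothelial genes to 0.811 to 2.36 CPM. The 4 leukocyte genes summed to 10.1 to 19.4 CPM, mostly CD68, with PTPRC at most 0.283 CPM. The 5 fibroblast genes summed to 15.8 to 17.4 CPM in wild type with DMSO and 4.73 to 5.75 CPM with JQ1, and to 12.8 to 14.4 CPM and 3.29 to 4.02 CPM in the knockout. Their part in the results below was not tested. KRT1 was at 0 in all 12 libraries and COL1A2 in 9. The members took their largest share of counts in knockout JQ1 replicate 3, and most of the members' results that it enters are given without it too.

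The 6 rows together held a large part of every library. Their share was 10.1% ± 0.200 (SD, n = 3) of counts in wild type with DMSO and 11.7% ± 0.586 with JQ1. In the knockout it was 11.7% ± 0.616 with DMSO and 13.3% ± 1.86 with JQ1. Single libraries ran from 9.97% in wild-type DMSO replicate 1 to 15.3% in knockout JQ1 replicate 3, and without that library the knockout JQ1 mean was 12.3%. The wild-type JQ1 libraries, at 11.1 to 12.3%, lay above the 3 wild-type DMSO libraries, at 9.97 to 10.3%, and so did the knockout DMSO libraries, at 11.0 to 12.3%. With 3 libraries against 3, the smallest p an exact two-sided permutation test can give is 0.1, which both of these comparisons had. Shares describe these libraries, since depletion of ribosomal RNA and fragment size act on short RNAs, and more transcripts per cell cannot be told apart from less of everything else.

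**Figure D1:**
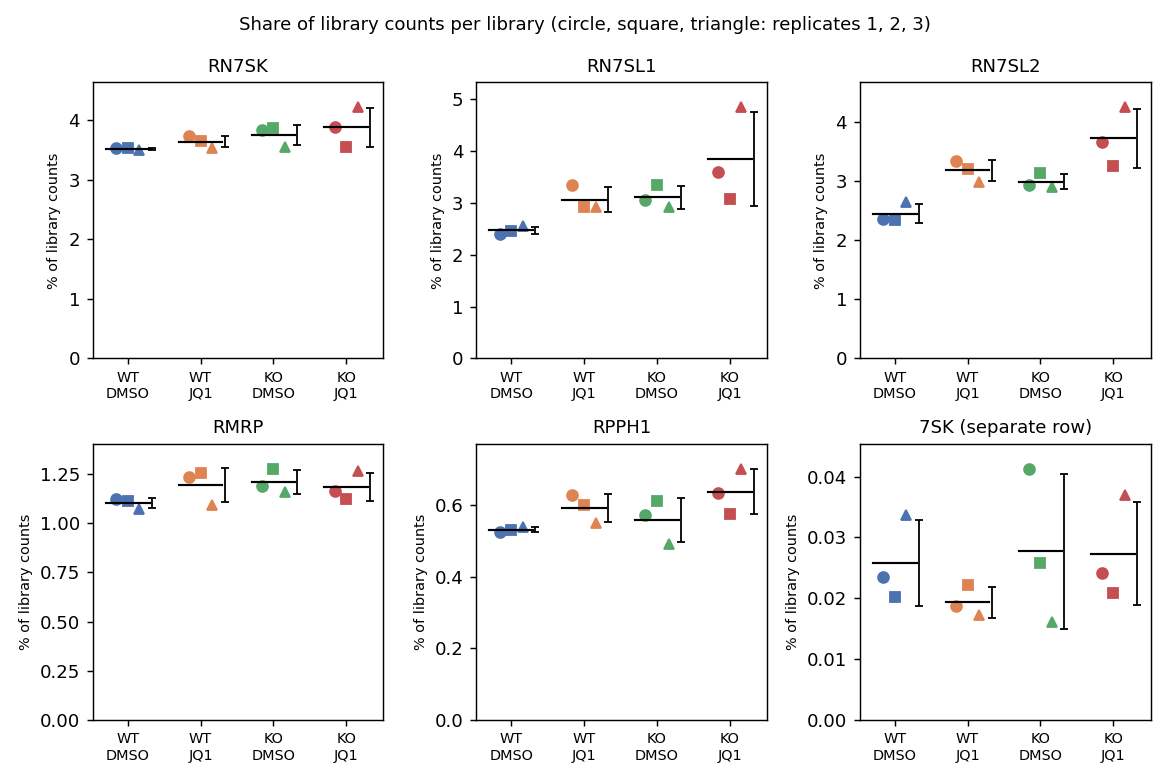
Share of library counts (y axis, percent, from 0) of each of the 6 rows in each library, by group (x axis); circle, square and triangle are replicates 1, 2 and 3, the horizontal line is the mean and the bar beside it the SD of 3 libraries. RN7SL1 and RN7SL2 lie higher in all wild-type JQ1 and knockout DMSO libraries than in wild-type DMSO, and the triangle of the knockout JQ1 group is the highest point for RN7SK, RN7SL1, RN7SL2 and RPPH1.

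RN7SK was the row with the most counts in 11 of the 12 libraries and ranked 3rd in knockout JQ1 replicate 3, where RN7SL1 was 1st and RN7SL2 2nd. Its share in wild type with DMSO was 3.54, 3.53 and 3.50% in replicates 1 to 3, and with JQ1 it was 3.73, 3.64 and 3.54%. Knockout libraries had 3.83, 3.87 and 3.56% with DMSO and 3.88, 3.56 and 4.22% with JQ1. The wild-type groups did not overlap, though JQ1 replicate 3 lay only just above DMSO replicate 1, and the knockout groups overlapped. Summed with the 7SK row and the RN7SKP pseudogenes, the wild-type groups overlapped too, with a difference of 0.112 points (exact permutation p = 0.2, n = 3 against 3). Counting error was far smaller than these spreads, since the Wilson 95% interval of the share in wild-type DMSO replicate 1 was 3.532 to 3.545%. The mean was 3.52% with DMSO and 3.64% with JQ1 in wild type (exact permutation p = 0.1, n = 3 against 3), a difference of 0.119 points. In the knockout the difference was 0.133 points (exact permutation p = 0.4, n = 3 against 3), and without replicate 3 of the JQ1 group it turned to -0.0324 points (exact permutation p = 0.8, n = 2 against 3).

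On the CPM scale, RN7SK in wild type was at 33340, 33170 and 33250 with DMSO and at 38920, 38100 and 35790 with JQ1. Knockout libraries were at 37670, 37660 and 34530 with DMSO and at 41200, 36570 and 45570 with JQ1. All JQ1 libraries of wild type were above all DMSO libraries, and the knockout groups overlapped. The DMSO libraries of wild type lay close together, with a coefficient of variation of 0.263%, against 10.9% in the knockout JQ1 group. In edgeR's quasi-likelihood fit over all 12 libraries and 21698 genes, RN7SK rose with JQ1 in wild type by 0.18 on the log2 scale (SE 0.064, 95% interval 0.041 to 0.314, Benjamini-Hochberg adjusted p = 0.0448), a fold of 1.13. Summed with the 7SK row it rose by 0.17 (adjusted p = 0.0499, edgeR). In the knockout the log2 difference was 0.17 (SE 0.064, adjusted p = 0.0561 in the same edgeR fit), and without replicate 3 of the JQ1 group the CPM mean was 38880 in place of 41110.

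The wild-type call for RN7SK was near the threshold and depended on the scaling. With library totals in place of TMM factors the log2 difference in wild type was 0.047 (adjusted p = 0.508, edgeR), and the median difference of all tested genes moved by -0.129; in the knockout the median moved by -0.115. The adjusted p in wild type was 0.0711, 0.0753 and 0.0725 without DMSO replicate 1, 2 or 3, 0.139 without JQ1 replicate 1 and 0.112 without JQ1 replicate 2 (all edgeR). In the knockout RN7SK passed without JQ1 replicate 2, at 0.25 (adjusted p = 0.00265, edgeR). The JQ1 effect on RN7SK in the knockout minus that in wild type was -0.01 (SE 0.090, adjusted p = 0.989, edgeR), with a 95% interval of -0.203 to 0.182. Knockout against wild type, RN7SK differed by 0.14 in DMSO (adjusted p = 0.242) and by 0.13 in JQ1 (adjusted p = 0.275, both edgeR). Its share was higher in the knockout by 0.233 points in DMSO, without overlap (exact permutation p = 0.1, n = 3 against 3). In JQ1 the share difference was 0.247 points, with overlap (exact permutation p = 0.3, n = 3 against 3). Without knockout JQ1 replicate 3 it was 0.0822 points (exact permutation p = 0.6, n = 2 against 3).

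**Figure D2:**
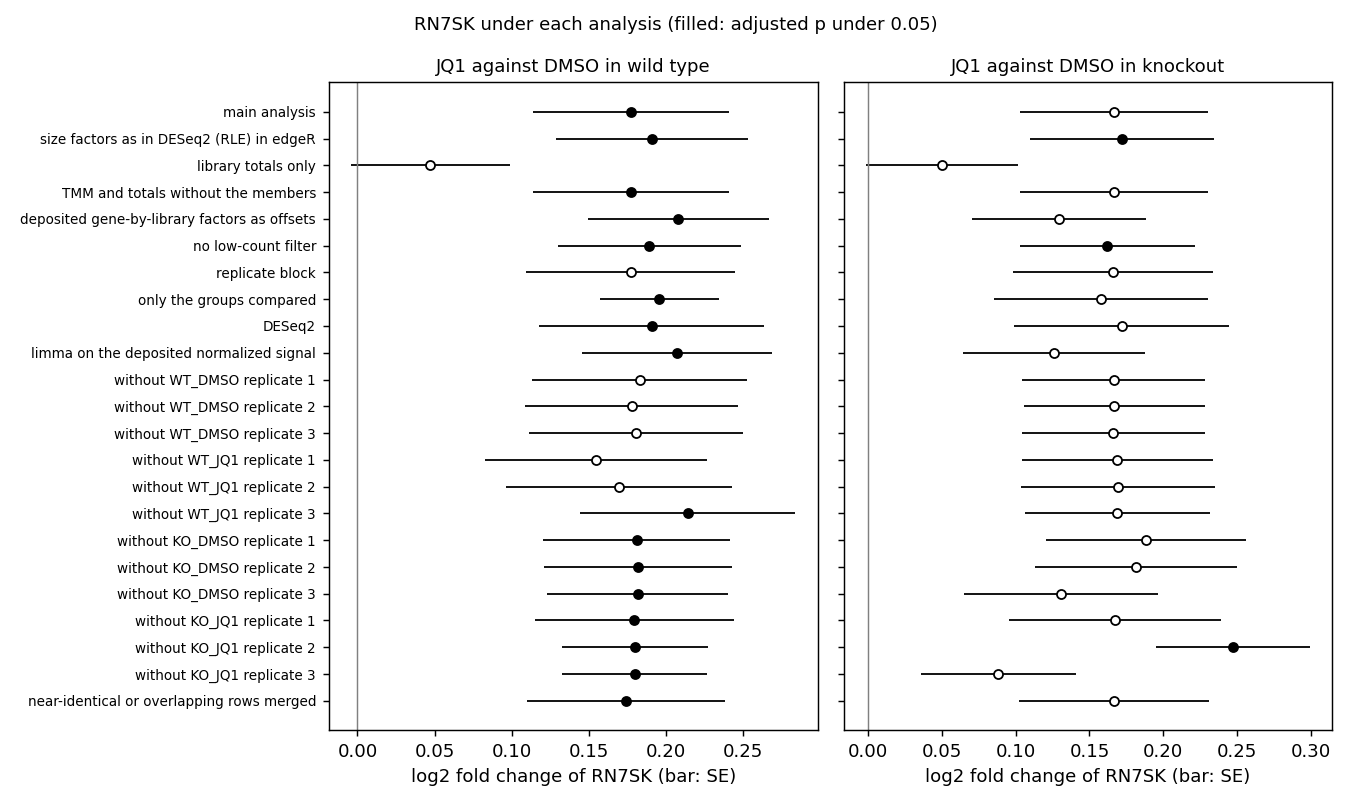
The log2 fold change of RN7SK with JQ1 (x axis, bars are SE) in wild type and knockout under the main analysis and each alternative (y axis); filled points have an adjusted p under 0.05. The points of wild type lie between 0.05 and 0.21, and with library totals both genotypes sit near 0.05.

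The row labelled 7SK was small, at 0.450 to 1.08% of the RN7SK count of the same library. In wild type it was at 221, 190 and 321 CPM with DMSO and 195, 231 and 174 CPM with JQ1. The corresponding knockout values were 406, 252 and 156 CPM with DMSO and 256, 215 and 399 CPM with JQ1. The groups overlapped in all 4 comparisons, and its level varied more than that of any other member in each of the 4 groups. Its log2 difference with JQ1 was -0.29 in wild type (SE 0.29, adjusted p = 0.492) and 0.10 in the knockout (SE 0.29, adjusted p = 0.835, both edgeR), and the latter turned to -0.20 without knockout JQ1 replicate 3, to -0.18 without DMSO replicate 3 and to -0.02 with library totals. Knockout against wild type it was 0.15 in DMSO, which turned to -0.25 without knockout DMSO replicate 1, and 0.54 in JQ1 (adjusted p = 0.326, edgeR), which was 0.24 without knockout JQ1 replicate 3 (adjusted p = 0.680). The 293 RN7SKP pseudogene symbols together held 0.00266 to 0.00361% of counts.

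Among the members called, the 7SL copies had the largest differences. The comparisons of JQ1 with DMSO in wild type and of knockout with wild type in DMSO share the wild-type DMSO libraries, so their values are given side by side and not as independent results. RN7SL1 in wild type was at 22580, 23180 and 24190 CPM with DMSO and at 34780, 30580 and 29570 CPM with JQ1. In the knockout it was at 30010, 32580 and 28290 CPM with DMSO and at 38180, 31640 and 52310 CPM with JQ1. RN7SL2 in wild type was at 22260, 22130 and 25130 CPM with DMSO and at 34950, 33530 and 30300 CPM with JQ1. Knockout libraries were at 28950, 30580 and 28220 CPM with DMSO and at 38980, 33550 and 45980 CPM with JQ1. For both copies the 3 wild-type DMSO libraries were below all 9 others. The knockout JQ1 and DMSO groups overlapped for RN7SL1 and did not for RN7SL2.

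RN7SL2 rose with JQ1 by 0.51 in wild type (SE 0.090, adjusted p = 0.000533) and by 0.43 in the knockout (SE 0.090, adjusted p = 0.00161, both edgeR), folds of 1.42 and 1.35. It was the only member that passed in both genotypes under every alternative run, library totals included. RN7SL1 rose by 0.44 in wild type (SE 0.13, adjusted p = 0.0154) and by 0.43 in the knockout (SE 0.13, adjusted p = 0.0174, both edgeR). Without knockout JQ1 replicate 3 its difference in the knockout was 0.21 (adjusted p = 0.0553, edgeR). Without knockout DMSO replicate 3 it was 0.38 (adjusted p = 0.0602), and without wild-type JQ1 replicate 1 the wild-type difference was 0.37 (adjusted p = 0.0708, edgeR). The sum of RN7SL1, RN7SL2 and RN7SL3, which does not depend on the split between copies, rose by 0.48 in wild type (adjusted p = 0.00308) and by 0.43 in the knockout (adjusted p = 0.00569, both edgeR). The share of RN7SL1 plus RN7SL2 rose with JQ1 in the knockout by 1.47 points, with overlap (exact permutation p = 0.2, n = 3 against 3). Without knockout JQ1 replicate 3 the share difference was 0.705 points (exact permutation p = 0.4, n = 2 against 3). RN7SL1 made up 47.7 to 53.2% of RN7SL1 plus RN7SL2 in the 12 libraries. The JQ1 effects of the genotypes differed by -0.01 for RN7SL1 (95% interval -0.400 to 0.371) and by -0.07 for RN7SL2 (95% interval -0.345 to 0.199), with adjusted p of 0.994 and 0.927 in edgeR.

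RMRP in wild type was at 10580, 10470 and 10200 CPM with DMSO and at 12870, 13130 and 11050 CPM with JQ1. The corresponding knockout values were 11680, 12430 and 11250 CPM with DMSO and at 12370, 11560 and 13670 CPM with JQ1. On this scale the wild-type groups did not overlap and the knockout groups did. As shares of library counts the wild-type groups overlapped too, with means of 1.103% with DMSO and 1.195% with JQ1 (exact permutation p = 0.3, n = 3 against 3). RMRP rose by 0.25 in wild type (SE 0.068, adjusted p = 0.0120, edgeR). The call was lost without wild-type JQ1 replicate 1 (0.22, adjusted p = 0.0529), without replicate 2 (0.20, adjusted p = 0.0622) and with library totals (0.12, adjusted p = 0.136). In the knockout the difference was 0.09 (SE 0.068, adjusted p = 0.352, edgeR), and -0.03 with library totals. The difference between the genotypes' JQ1 effects was -0.16 (95% interval -0.363 to 0.049, adjusted p = 0.692, edgeR).

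RPPH1 in wild type was at 4949, 4996 and 5141 CPM with DMSO and at 6557, 6281 and 5569 CPM with JQ1. In the knockout it was at 5629, 5963 and 4761 CPM with DMSO and at 6748, 5929 and 7591 CPM with JQ1. All wild-type JQ1 libraries were above all wild-type DMSO libraries, and in the knockout JQ1 replicate 2 fell just below DMSO replicate 2. RPPH1 rose by 0.29 in wild type (SE 0.090, adjusted p = 0.0237) and by 0.31 in the knockout (SE 0.090, adjusted p = 0.0150, both edgeR). Without knockout JQ1 replicate 3 the knockout difference was 0.22 (adjusted p = 0.0542), and without knockout DMSO replicate 3 it was 0.23 (adjusted p = 0.0607). In wild type the adjusted p was 0.0562 and 0.0514 without DMSO replicate 1 or 2, and 0.0994 and 0.0733 without JQ1 replicate 1 or 2. The overlapping row AL355075.4 had means of 60.4, 148, 92.6 and 116 CPM in wild type with DMSO, wild type with JQ1, knockout with DMSO and knockout with JQ1. Adding it to RPPH1 left both calls past the threshold, at 0.30 in wild type (adjusted p = 0.0174) and 0.31 in the knockout (adjusted p = 0.0147, edgeR).

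Counted together, 5 of the 6 members were called higher with JQ1 in wild type, where 16.9% of all tested genes were called higher, and 3 of 6 in the knockout, where 16.7% were. The median log2 difference of the members was 0.27 in wild type and 0.24 in the knockout, against -0.034 and -0.0035 over all tested genes. The counts rest on the scaling, since with library totals 1 member, RN7SL2, was called in each genotype. That scaling also called fewer genes higher, 2298 of all 21698 tested in wild type and 2409 in the knockout, against 3665 and 3616 with TMM. The member counts also fell to 1 in wild type without JQ1 replicate 1, to 2 without JQ1 replicate 2 and to 3 without DMSO replicate 1 or 2. In the knockout the count fell to 1 without JQ1 replicate 3 or without DMSO replicate 3. Knockout against wild type in DMSO, 1 of 6 members, RN7SL2, was called higher, where 3.47% of all tested genes were. In JQ1 it was 0 of 6, where 3.01% were, and DESeq2 and limma also called 0. An unadjusted p under 0.05 was given by edgeR to 2 of the 6 members and to 4484 of all 21698 tested genes, in either direction. For the difference of the JQ1 effects, 0 of 6 were called in edgeR, DESeq2 and limma, where edgeR called 0.134% of all tested genes in either direction. At an unadjusted p under 0.05 in edgeR it was 0 of 6, against 1817 of 21698 tested genes.

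Knockout JQ1 replicate 3 entered every fit through its own group and through the shared estimate of spread. Without it, the JQ1 differences in the knockout were 0.31 for RN7SL2 (adjusted p = 0.00293), 0.09 for RN7SK (adjusted p = 0.229) and 0.02 for RMRP (adjusted p = 0.823, all edgeR), each smaller than with it. The wild-type differences hardly moved, with RN7SK at 0.18, but their adjusted p fell, for RN7SK to 0.00672 and for RN7SL1 to 0.000126 (edgeR). The difference of the JQ1 effects, knockout minus wild type, was then -0.24 for RN7SL1 (adjusted p = 0.354), -0.20 for RN7SL2 (adjusted p = 0.400), -0.22 for RMRP (adjusted p = 0.276) and -0.09 for RN7SK (adjusted p = 0.617, all edgeR), and none of these 4 was called.

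**Figure D3:**
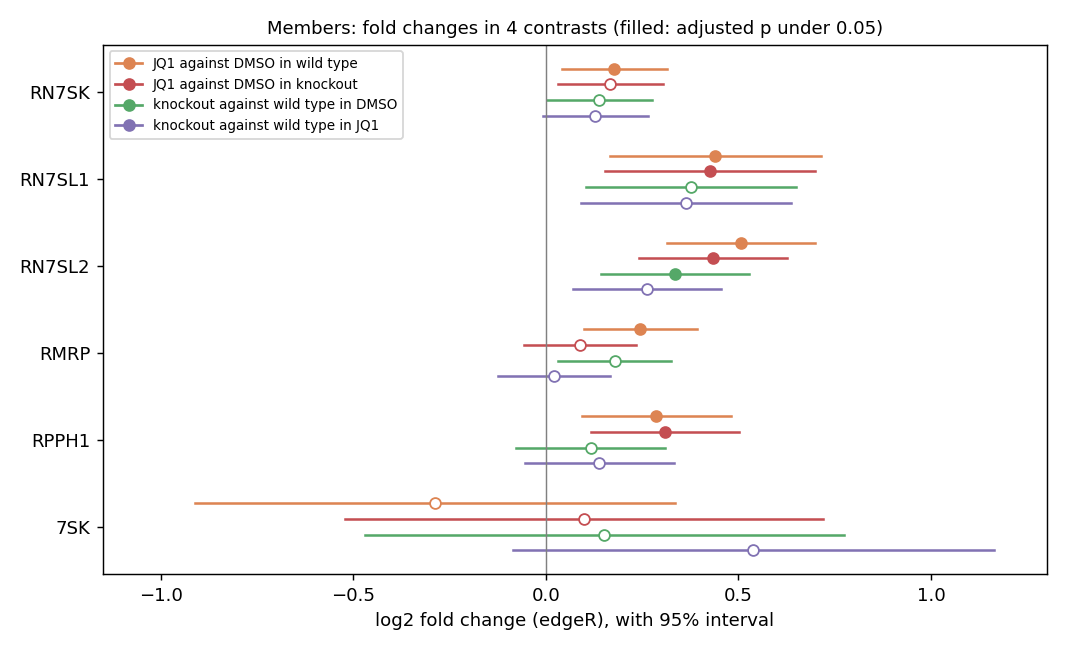
Log2 fold change (x axis, edgeR, bars are 95% intervals) of each member (y axis) in 4 contrasts, coloured by contrast; filled points have an adjusted p under 0.05. RN7SL1 and RN7SL2 lie between 0.26 and 0.51 in all 4 contrasts, and the intervals of the 7SK row are the widest.

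Knockout against wild type in DMSO, RN7SL2 was higher by 0.34 (SE 0.090, adjusted p = 0.0318, edgeR), and its groups did not overlap. The call was lost without wild-type DMSO replicate 1 (adjusted p = 0.0953) or 2 (0.0991) and without knockout DMSO replicate 1 (0.0509), 2 (0.0817) or 3 (0.0506), at log2 differences of 0.31 to 0.37 (edgeR). It was kept without knockout JQ1 replicate 3 (0.34, adjusted p = 0.00238, edgeR). RN7SL1 differed by 0.38 (SE 0.13, adjusted p = 0.0942) in the same edgeR fit. DESeq2 called it (adjusted p = 0.0330), and so did edgeR on the groups compared alone (0.000680), without knockout JQ1 replicate 3 (0.00202) and without knockout JQ1 replicate 2 (0.0248). The summed 7SL row differed by 0.36 (adjusted p = 0.0546, edgeR). RMRP differed by 0.18 (adjusted p = 0.146) and RPPH1 by 0.12 (adjusted p = 0.544, both edgeR). The RMRP groups did not overlap, and those of RPPH1 did. RMRP was called in 2 of 21 alternatives, the deposited factors as offsets (adjusted p = 0.0439) and the groups compared only (0.0239, both edgeR), and RPPH1 in 0 of 22. The share of counts in genes of the mitochondrial genome moved with genotype, at 1.91% ± 0.0902 in wild type and 1.60% ± 0.107 in the knockout with DMSO (SD, n = 3), and its part in these differences was not tested. In JQ1, RN7SL1 differed between genotypes by 0.36 (adjusted p = 0.103), RN7SL2 by 0.26 (adjusted p = 0.0942), RPPH1 by 0.14 (adjusted p = 0.434) and RMRP by 0.02 (adjusted p = 0.904, all edgeR). Without knockout JQ1 replicate 3 the RN7SL1 and RN7SL2 differences in JQ1 were 0.14 each, with RN7SK and RPPH1 at 0.05 each and RMRP at -0.05, and without knockout JQ1 replicate 2 they were 0.52 (adjusted p = 0.00790) and 0.37 (adjusted p = 0.00981, edgeR), with RN7SK at 0.21 (adjusted p = 0.0294).

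Ratios of counts within a library do not depend on how libraries are scaled to each other. RN7SL1 plus RN7SL2 relative to RN7SK was 1.34, 1.37 and 1.48 in wild type with DMSO and 1.79, 1.68 and 1.67 with JQ1. The knockout libraries had 1.56, 1.68 and 1.64 with DMSO and 1.87, 1.78 and 2.16 with JQ1. JQ1 libraries were above DMSO libraries in both genotypes, and knockout DMSO libraries above wild-type DMSO libraries, with an exact permutation p = 0.1 (n = 3 against 3) each. Knockout and wild type overlapped in JQ1 (exact permutation p = 0.2, n = 3 against 3). RPPH1 relative to RN7SK was 0.151 ± 0.0031 with DMSO and 0.163 ± 0.0066 with JQ1 in wild type, and 0.149 ± 0.010 and 0.164 ± 0.0022 in the knockout (SD, n = 3), with no overlap between treatments in either genotype. RMRP relative to RN7SK overlapped in all 4 comparisons, from 0.30 to 0.345. RMRP relative to RPPH1 in the knockout was 2.17 ± 0.164 with DMSO and 1.86 ± 0.0785 with JQ1 (SD, n = 3), without overlap, and in wild type 2.07 and 2.01 with overlap.

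**Figure D4:**
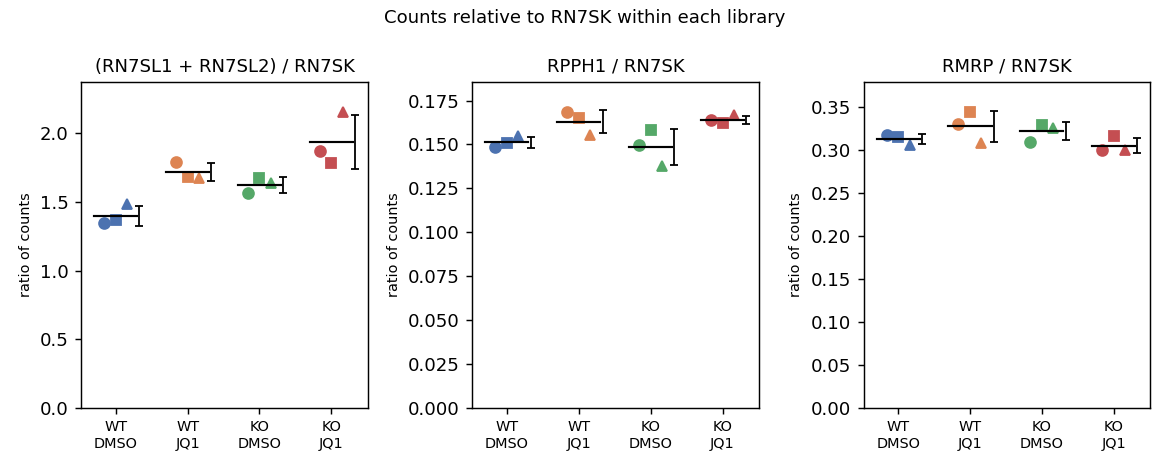
Ratio of counts to RN7SK in the same library (y axis, from 0) for the 7SL copies, RPPH1 and RMRP, by group (x axis); circle, square and triangle are replicates 1, 2 and 3, lines are means and bars SD of 3 libraries. The 7SL ratio runs from 1.34 in wild type with DMSO to 2.16 in knockout JQ1 replicate 3, and the RMRP ratio stays between 0.30 and 0.345.

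Levels per base of full transcript length were computed for RN7SK, RN7SL1, RN7SL2, RN7SL3, RMRP and RPPH1 only. Among these, RN7SK had the highest level in wild type with DMSO, at 101 CPM per base ± 0.266 (SD, n = 3). RN7SL1 followed at 78.0 ± 2.72 and RN7SL2 at 77.2 ± 5.66, which did not differ beyond their spread. These rows are copies of the same RNA, 7SL. Together they held more counts than RN7SK in every library, with ratios of 1.345 to 2.157. RMRP had 38.9 ± 0.724 and RPPH1 15.1 ± 0.301, so the order below the 7SL copies was clear of the spread. RN7SL3 stood at 1.97 CPM per base. In the knockout with JQ1 the order of the leading rows was not resolved, with RN7SL1 at 136 ± 35.3, RN7SL2 at 132 ± 20.8 and RN7SK at 125 ± 13.7 CPM per base (SD, n = 3).

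Across the 12 libraries the members except the 7SK row varied together on the log2 CPM scale. Pearson's r with RN7SK was 0.975 for RN7SL1, 0.947 for RN7SL2, 0.953 for RPPH1 and 0.903 for RMRP, and without knockout JQ1 replicate 3 it was 0.952, 0.921, 0.930 and 0.886. For the 7SK row it was 0.489, and 0.209 without that library. These values describe 12 libraries in 4 groups that share their scaling, so they carry no test. Among 9503 other genes averaging 10 CPM or more, those most like RN7SK were the histone gene HIST1H4E (r = 0.974), RN7SL3 (0.960), the ribosomal and ubiquitin-like fusion gene FAU (0.954), the small Cajal body RNA SCARNA2 (0.953) and the complex I subunit NDUFB11 (0.945). Those most like RN7SL1 were RN7SL3 (0.978), TPM2 (0.970) and FAU (0.961). PPP1R7 (0.963), NDUFB7 (0.952) and PACSIN2 (0.936) were most like RMRP, and HIST1H4E (0.974), HIST2H2AB (0.939) and ALG1 (0.939) most like RPPH1. Without knockout JQ1 replicate 3 these lists changed in part. NDN (0.930) and HIST2H3D (0.921) took the places of SCARNA2 and NDUFB11 for RN7SK, UBB (0.958) and RPS15 (0.955) those of TPM2 and FAU for RN7SL1, and ELOVL4 (0.918) that of ALG1 for RPPH1. The genes named for RMRP were PPP1R7 (0.961), NDUFB7 (0.935) and PACSIN2 (0.918) without it as well.

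Of the 7 proteins of the 7SK particle and P-TEFb, HEXIM1, CDK9 and MEPCE rose with JQ1 in both genotypes. In wild type 3 of 7 rose and 0 fell, with a list median of 0.02, and in the knockout 3 rose and 1 fell, with a median of 0.05; over all tested genes 16.9 and 16.7% were higher and 16.2 and 17.8% lower. HEXIM1, the protein that inhibits P-TEFb in the particle, rose by 0.79 in wild type (adjusted p = 4.11e-07) and 0.78 in the knockout (adjusted p = 3.92e-07), from 91.5 ± 2.09 to 158 ± 6.33 CPM in wild type (SD, n = 3, edgeR). CDK9, the kinase of P-TEFb, rose by 0.48 and 0.50 (adjusted p = 0.00347 and 0.00257, edgeR). The capping enzyme MEPCE rose by 0.24 in each (adjusted p = 0.0300 and 0.0297, edgeR). The MEPCE call in wild type was lost without any 1 of the DMSO replicates (adjusted p 0.0575 to 0.0812) and without JQ1 replicate 1 (0.111) or 2 (0.0984). The knockout call was lost without DMSO replicate 1 (0.106) or 2 (0.0517) and without JQ1 replicate 3 (0.14, adjusted p = 0.105), and with the groups compared only (0.0971). With library totals MEPCE was at 0.11 in wild type (adjusted p = 0.270) and 0.12 in the knockout (adjusted p = 0.226, edgeR). LARP7 differed by -0.27 (adjusted p = 0.202) and -0.39 (adjusted p = 0.0618, edgeR). None of the 7 was called between genotypes in either treatment, where 7.92% of all tested genes were called in DMSO and 8.57% in JQ1.

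Of 8 proteins of the signal recognition particle and its receptor, 3 rose with JQ1 in wild type (list median 0.19), and in the knockout 4 rose and 1 fell (median 0.17). Over all tested genes, here and for the lists below, 16.9% were called higher and 16.2% lower with JQ1 in wild type, and 16.7 and 17.8% in the knockout. Between genotypes 3.47% were called higher and 4.44% lower in DMSO, and 3.01 and 5.56% in JQ1. SRPRB, the membrane-anchored receptor subunit, rose by 0.30 and 0.49 (adjusted p = 0.00471 and 0.000105, edgeR), and SRPRA, its partner, by 0.21 and 0.22 (adjusted p = 0.00915 and 0.00650). SRP68, a protein of the large domain of the particle, rose by 0.18 in wild type (adjusted p = 0.0268), a call lost without DMSO replicate 1 (0.0808) or 2 (0.128) and without JQ1 replicate 1 (0.0806) or 3 (0.0939, edgeR). Its partner SRP72 fell by 0.48 in the knockout (adjusted p = 0.00134, edgeR). Genes named in 1 genotype only, here and for the lists below, were picked by adjusted p within that genotype and are not called particular to it. The difference of the JQ1 effects was called for 0 of the 8, where 0.134% of all tested genes were. SRP54, which binds the signal peptide, differed by 0.21 (adjusted p = 0.0916) and 0.09 (adjusted p = 0.472, edgeR). With library totals the calls of SRPRB (0.18, adjusted p = 0.0965) and SRP68 (0.05, adjusted p = 0.582) in wild type and of SRPRA in wild type (0.08, adjusted p = 0.293) and knockout (0.10, adjusted p = 0.167) were lost, as was that of SRP68 without the filter on low counts (adjusted p = 0.0796, edgeR). Between genotypes in DMSO 1 rose and 1 fell, SRP68 by 0.31 (adjusted p = 0.00253) and SRP9 at -0.38 (adjusted p = 0.00420, edgeR; -0.25 with the deposited factors as offsets), and in JQ1 0 of 8 were called.

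Of 11 proteins of RNase P and RNase MRP, which are largely shared by the particles of RPPH1 and RMRP, 4 rose and 0 fell with JQ1 in wild type (list median 0.15), and 4 rose and 1 fell in the knockout (median 0.23). POP5 rose by 0.61 and 0.59 (adjusted p = 2.32e-05 and 2.91e-05, edgeR). RPP25 rose by 0.36 and 0.52 (adjusted p = 0.0188 and 0.00175), the former lost without wild-type DMSO replicate 1 (0.0611) or JQ1 replicate 1 (0.0552) or 2 (0.0891, edgeR), and with library totals (0.23, adjusted p = 0.0876). RPP21, a protein of RNase P, rose by 0.51 in wild type (adjusted p = 0.0144), lost without DMSO replicate 1 (0.38, adjusted p = 0.0671) or JQ1 replicate 2 (0.0530, edgeR). POP7 rose by 0.39 in the knockout (adjusted p = 0.00274, edgeR). POP1, the large shared subunit, differed by -0.03 and 0.05 (adjusted p = 0.769 and 0.589). None of the 11 was called between genotypes or for the difference of the JQ1 effects, where 0.134% of all tested genes were called for the latter.

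Genes of the Pol III machinery were called in both directions with JQ1, where 16.9% of all tested genes were higher and 16.2% lower in wild type and 16.7 and 17.8% in the knockout. Of 13 subunits, 4 rose and 4 fell in wild type, and 4 rose and 3 fell in the knockout, with list medians of 0.05 and 0.04. POLR3K rose by 0.41 and 0.56 (adjusted p = 0.000832 and 5.79e-05), POLR3D differed by -0.39 and -0.44 (adjusted p = 0.00101 and 0.000317), and POLR1D, which Pol I shares, by -0.30 and -0.38 (adjusted p = 0.000743 and 0.000102, all edgeR and all past the threshold). POLR3G, the subunit of an alternative form of the enzyme, fell by 0.30 in wild type (adjusted p = 0.0426) and by 0.40 in the knockout (adjusted p = 0.00894, edgeR). Of 20 initiation factors and regulators, 4 rose and 3 fell in wild type and 3 rose and 6 fell in the knockout, with medians of -0.07 and -0.14. MAF1, the repressor of Pol III, rose by 0.48 in wild type (adjusted p = 0.000108) and by 0.37 in the knockout (adjusted p = 0.000794, edgeR), from 91.8 to 128 and from 106 to 136 CPM. GTF3C1, the largest TFIIIC subunit, rose by 0.43 in the knockout (adjusted p = 0.000510), GTF3C6 fell by 1.00 in wild type (adjusted p = 0.000692) and GTF3C3 fell by 0.56 in the knockout (adjusted p = 8.84e-05, edgeR). The difference of the JQ1 effects was called for 0 of the 13 subunits and 0 of the 20 factors and regulators, where 0.134% of all tested genes were. POU2F1, an activator that binds the octamer upstream of such promoters, fell by 0.43 and 0.56 (adjusted p = 0.000926 and 8.75e-05). BRF1, a TFIIIB subunit, differed by 0.14 and 0.16 (adjusted p = 0.436 and 0.384, edgeR).

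Between genotypes in DMSO, 0 of the 13 subunits were called higher and 1 lower, and 1 of the 20 factors and regulators higher and 0 lower. In JQ1, 0 of the 13 subunits were called, and 1 of the 20 factors and regulators was higher and 2 lower. Over all tested genes 3.47% were higher and 4.44% lower in DMSO, and 3.01 and 5.56% in JQ1. GTF3A, the 5S RNA factor, was higher in the knockout by 0.37 in DMSO (adjusted p = 0.00298) and by 0.27 in JQ1 (adjusted p = 0.0243, edgeR). The latter was lost without wild-type JQ1 replicate 1 (0.0517), 2 (0.115) or 3 (0.0600) and without knockout JQ1 replicate 1 (0.0774) or 2 (0.0754), with library totals (0.0573) and with the groups compared only (0.0866). POU2F1 was lower in JQ1 at -0.37 (adjusted p = 0.0106, edgeR), lost without wild-type JQ1 replicate 3 (0.0505) and with the groups compared only (0.0549). POLR3F was lower in DMSO at -0.48 (adjusted p = 0.0443, edgeR). That call was lost without wild-type DMSO replicate 1 (-0.35, adjusted p = 0.232), 2 (0.0635) or 3 (0.0694), without knockout DMSO replicate 2 (0.150) or 3 (0.190), and without wild-type JQ1 replicate 1 (0.0631) or knockout JQ1 replicate 2 (0.0578). It was also lost with DESeq2-type size factors (0.0511), with the deposited factors as offsets (0.0611) and with limma (0.0667). SNAPC1, a subunit of the complex that recognises the upstream promoters of RN7SK, RPPH1 and RMRP, was lower in JQ1 at -0.33 (adjusted p = 0.0408, edgeR), with adjusted p from 0.0596 to 0.119 without any 1 of 11 libraries; without knockout JQ1 replicate 3 the value was -0.21. The SNAPC1 call was also lost with DESeq2-type size factors (0.0505), the deposited factors as offsets (0.0616), limma (0.0572) and the groups compared only (0.173).

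Of 38 other Pol III RNAs on the list, 15 passed the filter on low counts, so the list says little of the rest. With JQ1 3 rose and 0 fell in each genotype, RN7SL3 by 0.59 and 0.41, the neuronal cytoplasmic RNA BCYRN1 by 0.91 and 0.61, and the vault RNA VTRNA1-3 by 0.76 and 1.17 (adjusted p 5.05e-05 to 0.00883, edgeR). Without knockout JQ1 replicate 3 the RN7SL3 log2 fold change, JQ1 against DMSO in knockout, was 0.23 (adjusted p = 0.0135, edgeR). Between genotypes in DMSO RN7SL3 was higher by 0.44 (adjusted p = 0.0223), a call lost without wild-type DMSO replicate 1 (0.0515) or 2 (0.0743) or knockout DMSO replicate 2 (0.0649), and VTRNA1-3 was lower at -0.63 (adjusted p = 0.0331, edgeR). The VTRNA1-3 call was lost without any 1 of the wild-type DMSO replicates (0.0619 to 0.129) and without knockout DMSO replicate 2 (0.0901) or 3 (0.138), and DESeq2 gave 0.0896, and edgeR without the filter 0.121. In JQ1 BCYRN1 was lower at -0.49 (adjusted p = 0.0218, edgeR), lost without wild-type JQ1 replicate 1 (0.108) or 3 (0.0506) and without knockout JQ1 replicate 1 (0.0834) or 2 (0.0873), and with the groups compared only (0.0846).

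Structured and nuclear noncoding RNAs made by Pol II, were listed for comparison. Of 23 tested, 5 rose and 1 fell with JQ1 in wild type and 6 rose and 0 fell in the knockout. NEAT1, the scaffold of paraspeckles, rose by 1.28 and 0.97 (adjusted p = 2.61e-09 and 3.08e-08), SNORD3A, the U3 RNA of ribosome assembly, by 0.86 and 1.11 (adjusted p = 2.29e-06 and 2.42e-07), and MALAT1 by 0.63 and 0.71 (adjusted p = 3.12e-05 and 8.33e-06, all edgeR). NEAT1 in the knockout was 0.64 with limma and with the deposited factors as offsets. Between genotypes, 5 of the 23 were lower in the knockout in DMSO and 0 higher, where 4.44% of all tested genes were lower and 3.47% higher, with SNORD3A at -0.76 (adjusted p = 5.47e-05), MALAT1 at -0.49 (adjusted p = 0.00125) and RNU11 at -0.91 (adjusted p = 0.00195, edgeR). In JQ1 5 were lower and 0 higher, against 5.56 and 3.01% of all tested genes. Some snRNA copies on this list had identical counts in all libraries and were not separate measurements.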

How the data were processed

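RNA of 12 A375 libraries was sequenced after depletion of ribosomal RNA and directional library preparation, per the labels' protocols. The authors deposited estimated counts per gene symbol and a normalized signal, in which each rounded count had been divided by its own gene-by-library factor. The submitters' processing notes name Trim Galore, cutadapt, FastQC, MultiQC, kallisto, DESeq2 and GRCh38.p10; versions and the annotation are not given in the sources used here, nor whether counting used the strand. Testing was planned on counts, so the estimated counts were rounded. All 12 libraries entered edgeR's quasi-likelihood fit (edgeR 4.0.16, limma 3.58.1, R 4.3.3) with a term per group, filterByExpr (21698 genes kept), TMM factors of 0.926 to 1.06 and Benjamini-Hochberg adjustment, with a threshold of 0.05. Shares of library counts and within-library ratios were compared by exact two-sided permutation tests. Library totals of 25316565 to 34594025 counts make counting error small for the members; intervals cover counting error only. Alternatives were other scalings, DESeq2 1.42.0, limma on log2 of the deposited signal plus 1, no filter, the groups compared only, a replicate block and each library left out; merging near-identical rows was chosen after seeing the data. The fit was tested on simulated data.

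The members and lists were chosen with earlier results of these data known. From each list, up to 3 called genes per contrast with the smallest adjusted p are named, and HEXIM1, LARP7, MEPCE, SRP54, POP1, RPP25, POLR3G, MAF1 and BRF1 always; AL355075.4, TPM2 and others are named for overlap or likeness of pattern. Sequences and places come from GENCODE 29 on GRCh38. The sequences of the 7SL copies are not reported here.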

Additional observations from a re-analysis of the deposited data

How the results depend on the processing

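Values are edgeR log2 differences unless named otherwise. The number of members called with JQ1 was 1 in each genotype with library totals and 1 in each at an adjusted p of 0.01, and over left-out libraries it ran from 1 to 5 in wild type and from 1 to 4 in the knockout. Between genotypes in DMSO it was 3 with the deposited factors as offsets and with the groups compared only, 2 without the filter, with DESeq2 and with limma, 0 at an adjusted p of 0.01, and 0 to 2 over left-out libraries. In JQ1 it was 3 without the filter and 0 to 3 over left-out libraries. Of all 21698 tested genes, library totals called 2298 higher with JQ1 in wild type and 2409 in the knockout. The deposited factors called 790 higher between genotypes in DMSO. Such totals are not given here for the other alternatives, so their member counts have no background beside them. RN7SK with JQ1 in wild type was 0.0473 with library totals and 0.155 to 0.214 over left-out libraries. In the knockout it passed with DESeq2-type size factors (0.172) and without the filter (0.162), and ran from 0.0882 to 0.247 over left-out libraries; between genotypes in JQ1 it ran from 0.0478 to 0.207. The RN7SK share difference in wild type was 0.206 points with the members and their copies out of the denominator, and in the knockout it ran from -0.0324 to 0.296 points over left-out libraries.

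Signs that turned belonged to differences that were not called. With library totals, the 7SK row and RMRP with JQ1 in the knockout were -0.0202 and -0.0276, RMRP between genotypes in JQ1 was -0.0109, and the RN7SK difference of JQ1 effects was 0.0026. With the deposited factors, RMRP between genotypes in JQ1 was -0.0199 and the RPPH1 difference of JQ1 effects -0.0424; limma gave -0.0184 and -0.0393. Over left-out libraries the 7SK row ran from -0.202 to 0.513 with JQ1 in the knockout and from -0.254 to 0.438 between genotypes in DMSO, and RMRP between genotypes in JQ1 from -0.0528 to 0.0768. The differences of JQ1 effects ran from -0.0916 to 0.0674 for RN7SK, -0.237 to 0.138 for RN7SL1, -0.197 to 0.0317 for RN7SL2 and -0.0702 to 0.109 for RPPH1. The lowest or highest value came without knockout JQ1 replicate 2 or 3 in each of these 4. The cause was not tested.

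The main fit did not treat same-numbered libraries as paired. Each library's log2 CPM was taken as its deviation from its group mean, and correlations of these deviations between same-numbered libraries ran from -0.115 to 0.0786. Libraries with different numbers were not compared in this way, so these values cannot settle whether the numbers pair libraries. With the replicate block RN7SK in wild type was 0.177 (adjusted p = 0.0658, edgeR), and the number of members called there was within 1.5 times that without it.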
